A study of Homo sapiens with 14 samples.

Results

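The WNT pathway was followed through ChIP-seq intervals of the transcription factors STAT5 and BCL6 near gene starts in DLD-1, an established human colorectal adenocarcinoma line that carries a mutant APC gene. The genes were 54 named pathway members, chosen by symbol in the deposited interval lists, out of 26333 symbols that the lists hold. An interval near the start of 51 of them was listed at least once, and DVL1, LGR6 and WNT2 had none under their symbols. Per the labels, control cells received an empty vector, activator cells the plasmid pEGFP-C1199Tiam1 (coding for part of TIAM1, an exchange factor for the GTPase RAC1) with vehicle. Inhibitor cells carried that plasmid as well and were exposed to the RAC inhibitor EHT 1864 at 20 microM. The exposure to vehicle or inhibitor lasted 16 h, and whether control cells received vehicle is not said. Chromatin was taken 20 h after transfection. Of the 14 libraries in 6 groups, 9 are used here: 2 control BCL6 (libraries 2 and 8), 2 control STAT5 (1 and 7), 2 activator STAT5 (3 and 9) and 3 inhibitor BCL6 (6, 12 and 14). The other 5, activator BCL6 and inhibitor STAT5, were not analysed here, so no antibody was followed through all 3 conditions. All cells were of 1 line and were transiently transfected, and the labels give neither the transfected share nor whether libraries came from separate cultures. The files hold binding intervals and no RNA, and the colorectal identity of the cells was not checked against markers.

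WNT proteins are secreted ligands that bind Frizzled receptors with the co-receptors LRP5 and LRP6. Without a ligand, a destruction complex of APC, AXIN, GSK3 and casein kinase marks β-catenin for breakdown. With the ligand, β-catenin accumulates and joins TCF/LEF factors at target genes such as AXIN2, LGR5 and ASCL2. In the intestine this pathway maintains the stem cells of the crypts, and loss of APC function in colorectal cancer leaves β-catenin active without a ligand. STAT5 is known mainly as an activator of transcription and BCL6 as a repressor, and both recognise similar DNA sequences.

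The gene starts are shown as sequence where a treated interval fell on the stretch from 250 bp upstream to 50 bp downstream of the deposited start. This was so at FZD5 and GSK3A, both in the activator STAT5 list. The sequences are from RefSeq (GRCh38.p14, minus strand, chr2:207769857-207770156 for FZD5 and chr19:42242553-42242852 for GSK3A), 5′ to 3′, and capitals mark the 50 bases from the RefSeq start onwards. RefSeq and the Ensembl models of the lists differ in span (7309 against 6977 bp for FZD5, 12413 against 12439 bp for GSK3A), so the starts may differ. At FZD5 the difference in span is larger than the stretch shown. Which end of the gene differs was not checked, so the FZD5 sequence may not be that under the interval.
FZD5: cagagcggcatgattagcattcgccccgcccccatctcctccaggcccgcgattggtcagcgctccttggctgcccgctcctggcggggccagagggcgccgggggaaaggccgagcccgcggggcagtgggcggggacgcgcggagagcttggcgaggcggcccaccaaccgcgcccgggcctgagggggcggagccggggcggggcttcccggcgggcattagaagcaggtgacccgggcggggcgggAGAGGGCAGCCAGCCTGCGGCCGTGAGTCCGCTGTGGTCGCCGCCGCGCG
GSK3A: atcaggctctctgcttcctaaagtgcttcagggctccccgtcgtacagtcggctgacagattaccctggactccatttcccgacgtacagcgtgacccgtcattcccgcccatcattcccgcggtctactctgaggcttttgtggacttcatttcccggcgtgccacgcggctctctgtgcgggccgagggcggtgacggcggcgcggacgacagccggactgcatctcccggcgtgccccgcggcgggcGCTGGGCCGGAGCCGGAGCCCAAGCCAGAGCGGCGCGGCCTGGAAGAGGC
Both stretches are rich in G and C, 77.0% at FZD5 and 67.3% at GSK3A, against a median of 58.7% over the 34943 promoters of the table. They hold 38 and 34 CpG dinucleotides, against a median of 14. Neither holds TTCNNNGAA, the paired motif shared by STAT and BCL6 proteins that reads the same on both strands, nor CTTTGA or its reverse TCAAAG, the core bound by TCF/LEF factors.

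Promoters were in the table for 39 of the 54 genes (52 promoters). TTCNNNGAA was in 2 of these 52 (3.85%), against 7.66% of all promoters, and CTTTGA or TCAAAG in 3 (5.77%), against 12.9%. Matches at genes with an activator STAT5 interval elsewhere near their start are shown with 10 bases on either side, capitals marking the motif. Such genes had 20 promoters in the table. Each kind of motif was in 2 of these 20 (10.0%), near the 7.66% and 12.9% of all promoters, so the matches do not link motifs to intervals.
APC (chr5:112707313-112707341, plus strand): tgcagcacaaTTCAGAGAAggccagtaag
TCF7L2 (chr10:113126652-113126680, plus strand): agcgagataaTTCTGTGAAtggaactgtg
SP5 (chr2:170715180-170715205, plus strand): ctttgtggatTCAAAGgatttgcttt
SP5 (chr2:170715218-170715243, plus strand): agccgctattCTTTGAtgattgggta
SP5 (chr2:170715244-170715269, plus strand): gcggcaaactTCAAAGccataaatct
DKK1 (chr10:52314122-52314147, plus strand): gtgaagagtgTCAAAGgccccccttc
DKK1 (chr10:52314176-52314201, plus strand): cctcccagcgCTTTGAaatcccatcc
The SP5 promoter, of a zinc finger factor known as a direct WNT target, held 3 TCF/LEF cores, starting at -147, -109 and -83 bp from the RefSeq start. Of all promoters 0.1% (35 of 34943) held 3 or more. SP5 was picked as the extreme of the 52 promoters, so this share is a description and no test. The remaining match was at CSNK1A1, which had no activator STAT5 interval. A match describes the letters of these windows and is no evidence of a bound site.

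In activated cells STAT5 intervals lay near the starts of 23 of the 54 WNT genes, among them APC, AXIN2 and GSK3A of the destruction complex, the receptors FZD3, FZD4, FZD5, FZD6 and FZD8, and the factors LEF1, TCF7L1 and TCF7L2. That is 42.6% of the genes (95% exact Clopper-Pearson interval 29.2 to 56.8), where 26.1% of all protein-coding symbols had such an interval. A further 56 WNT pathway genes outside the 54, chosen for comparison, gave 13 (23.2%, 12.98 to 36.4), close to that background. They were WNT2B, WNT9A, SFRP4, SFRP5, TLE4, KREMEN2, APC2, TNKS2, CSNK1G1, FBXW11, ROR2, NLK and CBY1. Over both lists 36 of 110 genes had one (32.7%, 24.1 to 42.3). The 54 genes were proposed with results of these data known, so their share is a description without a test. The intervals of shares cover counting error only.

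**Figure D1:**
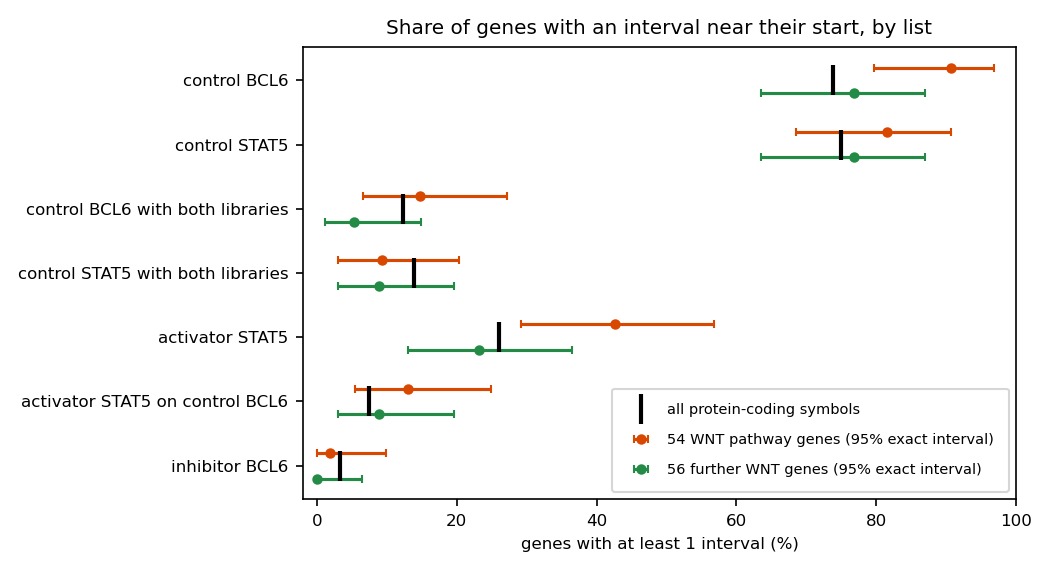
Share of genes with at least 1 interval near their start (x axis, %) in each list (y axis), for the 54 WNT pathway genes (orange) and 56 further WNT genes (green) with 95% exact intervals, and for all protein-coding symbols (black bars). The 54 genes stood at 42.6% in the activator STAT5 list, where the further WNT genes stood at 23.2% and all protein-coding symbols at 26.1%.

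The 23 genes were spread over the pathway. All 3 genes grouped as other targets had an activator STAT5 interval (ASCL2, NKD1 and SP5), as did 5 of 10 receptors, 3 of 6 secreted antagonists, 3 of 6 destruction complex genes and 3 of 6 TCF factors and corepressors. Of β-catenin and its co-activators 2 of 5 had one, of the R-spondin axis 2 of 7, of the ligands 2 of 8, and of the dishevelled genes 0 of 3. CTNNB1 itself, which codes for β-catenin, had none, and neither had the scaffold gene AXIN1, the kinase genes GSK3B and CSNK1A1, the co-receptor genes LRP5 and LRP6, or LGR5, a marker of intestinal stem cells. Classes of 3 to 10 genes are too small for their shares to be ordered.

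Each value below is the whole number deposited for an interval in a library, read here as a number of reads. In a treated list it may belong to a peak wider than the listed interval. The lowest value in a treated list is 2, and it must be reached in every library of the list. The position of an interval is given from its upstream to its downstream edge in bp from the gene start, in the direction of the gene.

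Among the receptors, FZD5 had the one activator STAT5 interval of the pathway that crossed a gene start. It lay on chromosome 2, 208634030 to 208634362, from -75 to 257 bp, with values of 3 in library 3 and 6 in library 9. FZD4, a Frizzled receptor that also binds norrin, had values of 5 and 3 at chromosome 11, 86667163 to 86667419 (-986 to -730 bp). FZD8 had 3 and 2 at chromosome 10, 35932147 to 35932299 (-1937 to -1785 bp). The order of the libraries thus differed between receptors, library 9 being higher at FZD5 and library 3 at FZD4 and FZD8. FZD6 had 2 intervals on chromosome 8, one with 2 and 2 (-2242 to -2100 bp) and one with 3 and 2 (-1167 to -921 bp). FZD3 had 2 and 2 in an interval of 40 bp (-2376 to -2337 bp) that is also listed for its neighbour FBXO16.

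In the R-spondin axis, ZNRF3, a ubiquitin ligase that removes Frizzled receptors from the cell surface, had the highest sum of the pathway in the activator STAT5 list. Its interval on chromosome 22, 29280387 to 29280717, lay inside the gene from 496 to 826 bp with values of 5 and 5. A second ZNRF3 interval, 29278753 to 29278911 (-1138 to -980 bp), had 3 and 3. Both libraries thus gave the same value at either interval. LGR4, a receptor for R-spondins, had 2 and 2 at chromosome 11, 27495230 to 27495402 (-1068 to -896 bp). LGR5, RNF43 (the partner ligase of ZNRF3), RSPO1 and RSPO3 had control intervals only.

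Of the ligands, WNT1, a canonical ligand, had values of 2 in library 3 and 6 in library 9 at chromosome 12, 49371134 to 49371454 (-1103 to -783 bp). WNT5B had 2 and 2 at chromosome 12, 1725420 to 1725557 (-803 to -666 bp). The difference between the libraries at WNT1 was the widest of the 27 intervals. Among the secreted antagonists, DKK1, which blocks LRP5 and LRP6, had 3 and 2 in an interval of only 28 bp on chromosome 10 (54073765 to 54073792, -292 to -265 bp), also listed for PRKG1-AS1. DKK3, a divergent family member, had 2 and 2 at chromosome 11, 12033068 to 12033278 (-2361 to -2151 bp). DKK4 had 2 and 2 within the gene, from 372 to 466 bp, so that all 3 antagonists with an interval were of the DKK family and lay at or near the lowest values.

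In the destruction complex, GSK3A, one of the kinases that phosphorylate β-catenin, had 3 intervals on chromosome 19, the most of any gene of the pathway. From the gene start outwards they had 2 and 2 (42746840 to 42747091, -314 to -63 bp), 3 and 4 (42748498 to 42748642, -1865 to -1721 bp) and 2 and 4 (42749178 to 42749323, -2546 to -2401 bp). The interval nearest to the start was thus the lowest. At least 3 intervals were found at 4.05% of the 5233 protein-coding symbols of the activator STAT5 list. APC, the scaffold mutated in DLD-1, had 3 and 3 at chromosome 5, 112041206 to 112041513 (-2013 to -1706 bp). AXIN2, a scaffold and a feedback target of the pathway, had 2 and 2 at chromosome 17, 63558611 to 63558788 (-1023 to -846 bp).

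Of the nuclear factors, LEF1 had 4 and 3 at chromosome 4, 109092259 to 109092400 (-2822 to -2681 bp). TCF7L2, the main TCF factor of the intestinal epithelium, had 2 and 2 at chromosome 10, 114708856 to 114708947 (-1154 to -1063 bp), and TCF7L1 had 2 and 2 at chromosome 2, 85358784 to 85358904 (-1750 to -1630 bp). LEF1 thus stood above both TCF genes in each library, by 1 or 2 reads. BCL9, a β-catenin co-activator, had 2 and 3 at chromosome 1, 147010614 to 147010879 (-2569 to -2304 bp). PYGO1, which binds BCL9, had 2 and 5 in an interval of 46 bp on chromosome 15 (55881715 to 55881760, -615 to -570 bp). The factors TCF7, TLE1 and TLE3 and the co-activators BCL9L and PYGO2 had control intervals only.

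The 3 remaining targets had the same values, 3 in library 3 and 2 in library 9. ASCL2, a factor of intestinal stem cells, had its interval at chromosome 11, 2293317 to 2293591 (-1409 to -1135 bp). NKD1, a feedback inhibitor, had it at chromosome 16, 50579680 to 50579856 (-2562 to -2386 bp). SP5 had it at chromosome 2, 171571424 to 171571562 (-438 to -300 bp), in an interval also listed for LINC01124. By these positions it lay upstream of the TCF/LEF cores, which were placed from the RefSeq start and not the deposited one. None of the 3 stood more than 1 read above the lowest value a treated list can hold.

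**Figure D2:**
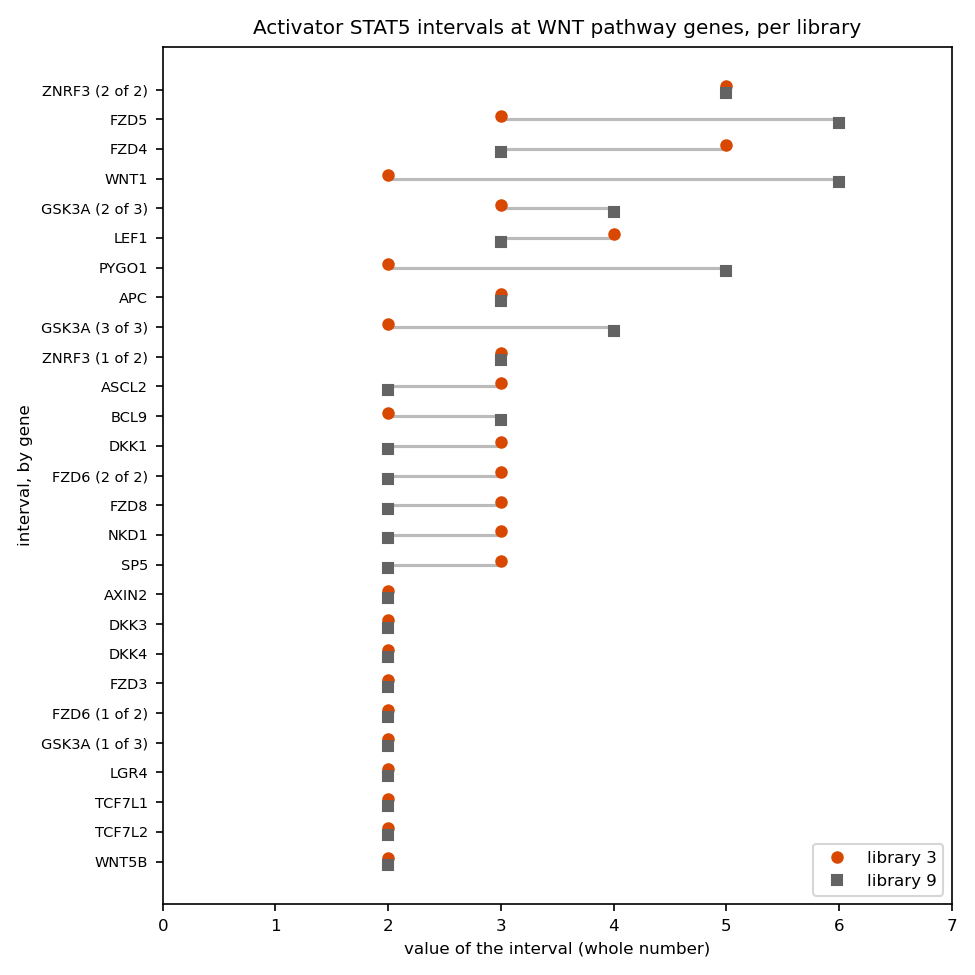
Value of each of the 27 activator STAT5 intervals at WNT pathway genes (y axis, numbered in order of coordinate where a gene has several) in library 3 (circles) and library 9 (squares), x axis in whole numbers. ZNRF3 has 5 and 5, FZD5 3 and 6, and 10 intervals have 2 in both libraries.

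Across the 27 intervals both libraries were at the lowest value of 2 in 10 (37.0%), as in 35.3% of all 14047 activator STAT5 intervals. Library 3 was higher in 8 (29.6%), against 22.7% of all intervals, and library 9 in 6 (22.2%), against 36.6%. Another 3 of the 27 were equal above 2. These counts are small, and whether the order of the libraries at the 27 differs from that over the list was not tested. At least 3 in both libraries was reached by 7 (25.9%, 11.1 to 46.3), against 16.9%. A sum of at least 8 was reached by 4 of the 27 (14.8%), at ZNRF3, FZD5, FZD4 and WNT1, against 15.2% of all intervals. The median sum was 5 in both sets. With most values at 2 or 3 reads a single interval carries little precision.

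The intervals of the pathway lay mostly upstream. The lists admit deposited distances of -3000 to 1000 bp from the gene start, so a majority upstream is not particular to the pathway. Of the 27, 24 (88.9%, 70.8 to 97.6) ended upstream of the gene start, 2 lay downstream (ZNRF3 and DKK4) and 1 crossed it (FZD5). Over the 15937 pairs of interval and gene in the whole list, 74.3% lay upstream, 22.3% downstream and 3.36% across the start. The median midpoint was -1059 bp against -1021 bp over these pairs. The median width was 159 bp against 142 bp. Of the 27, 19 were narrower than 250 bp, against 81.5% over the list, while no control interval was. How treated intervals were delimited is not stated, so this difference in width from the control lists is no evidence about binding. The 5 intervals under 100 bp belonged to FZD3, DKK4, DKK1, TCF7L2 and PYGO1.

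The count of 23 genes depended on how strict the entry was, and so did the background. With a value of at least 3 in both libraries 6 genes were left (APC, FZD4, FZD5, GSK3A, LEF1 and ZNRF3; 11.1%, 4.19 to 22.6), against 5.25% of protein-coding symbols. With a deposited distance within 1000 bp of the start 11 genes were left (20.4%, 10.6 to 33.5), against 14.5%. With a width of at least 100 bp 18 were left (33.3%, 21.1 to 47.5), against 18.5%. Under each of these rules the share stood above the background, but by the rules on value and on distance the background lay inside the interval of the share. Whether it lies inside or outside is no test, since the genes were proposed with results known. The rules keep parts of the same list, so they are not separate support.

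**Figure D3:**
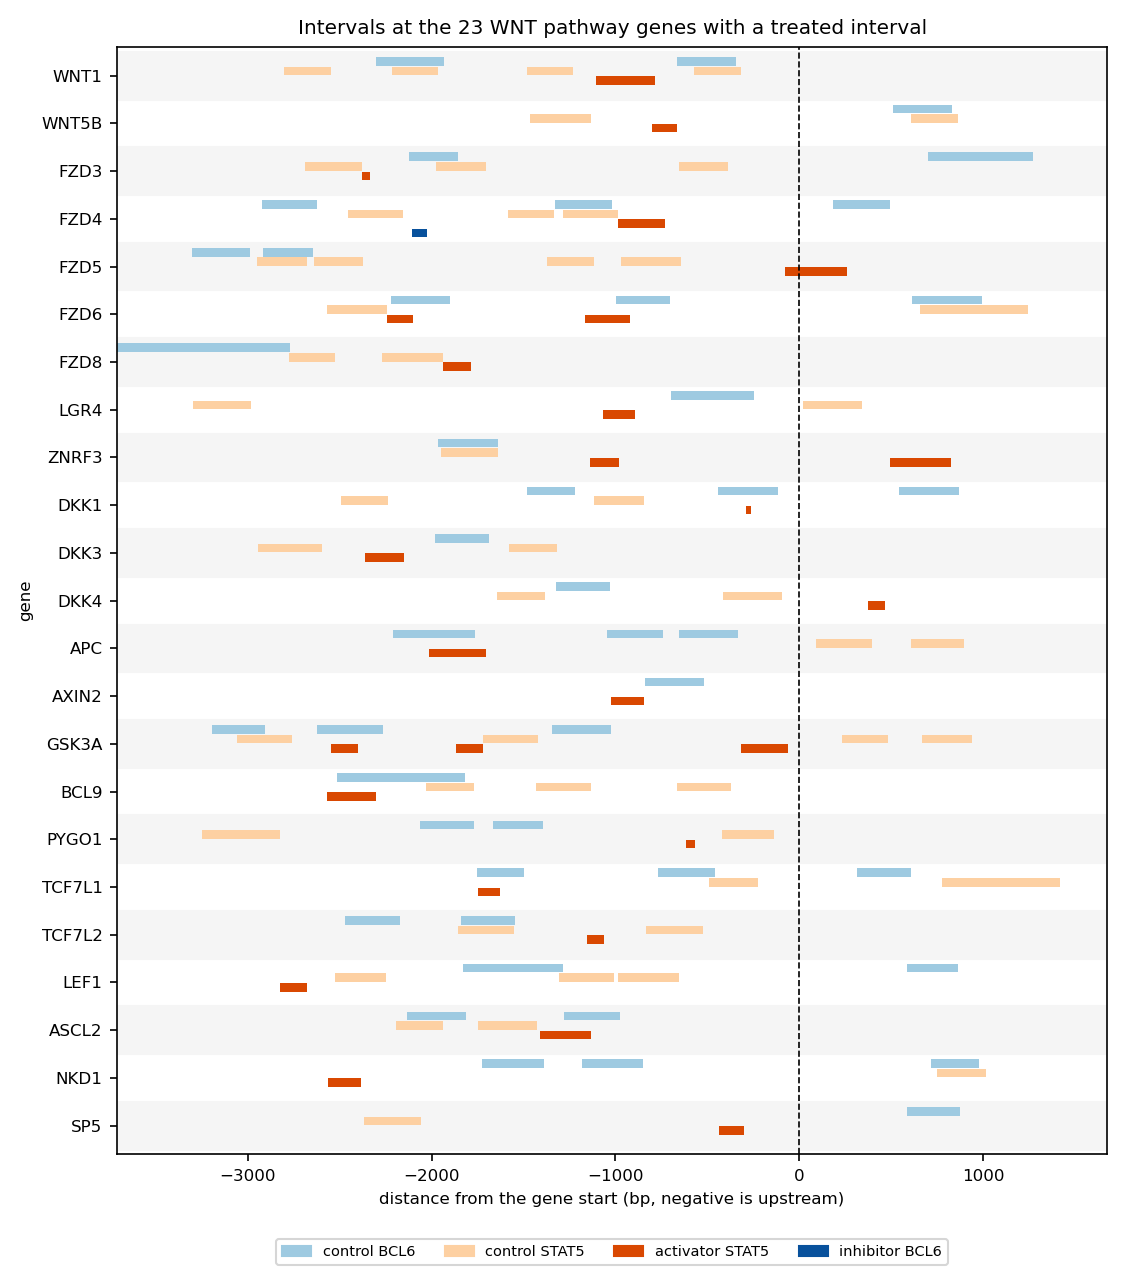
Positions of intervals (x axis, bp from the gene start in the direction of the gene) at the 23 WNT genes with a treated interval (y axis), for control BCL6 (light blue), control STAT5 (light orange), activator STAT5 (dark orange) and inhibitor BCL6 (dark blue). Most activator STAT5 intervals lie upstream of the dashed gene start, in lists whose deposited distances run from -3000 to 1000 bp. That of FZD5 crosses the gene start, from -75 to 257 bp.

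The comparison that the series title names, a switch from BCL6 to STAT5, is held by the list of activator STAT5 intervals on control BCL6 peaks. It contained APC, ASCL2, BCL9, DKK1, FZD6, GSK3A and TCF7L1, 7 of the 54 genes (12.96%, 5.37 to 24.9), against 7.43% of protein-coding symbols. Of the further WNT genes 5 of 56 were in it (8.93%, 2.96 to 19.6): WNT2B, TLE4, APC2, FBXW11 and ROR2. The APC interval had 3 and 3 in activator STAT5 and lay over a control BCL6 peak of 442 bp (112041011 to 112041452) with 4 in library 2 and 0 in library 8, sharing 247 bp. The BCL9 interval, with 2 and 3, shared 214 bp with a control BCL6 peak of 699 bp (147010666 to 147011364) that had 5 and 2 in the control list. In the shared list the control values at BCL9 are 5 and 0. By the control list BCL9 was the one of the 7 whose control BCL6 peak had a value in both libraries. By the shared list no interval of the 7 genes had a control value in both.

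The other 5 genes rested on control peaks seen in 1 library. At GSK3A the outermost of its 3 intervals, with 2 and 4, lay wholly inside a peak of 0 and 4. The TCF7L1 interval (2 and 2) and the 28 bp DKK1 interval (3 and 2) also lay wholly inside a peak, of 2 and 0 at TCF7L1 and of 0 and 2 at DKK1. The ASCL2 interval, with 3 and 2, shared 144 bp with a peak of 0 and 2, which is 52.4% of its width. At FZD6 the outer interval shared 119 bp with a peak of 2 and 0 and the inner one 74 bp with a peak of 0 and 2. In all, 8 of the 27 intervals (29.6%, 13.8 to 50.2) overlapped a control BCL6 peak, against 25.6% of all activator STAT5 intervals. The share at WNT genes was thus close to that of the whole list.

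None of the 27 activator STAT5 intervals, and none of the 14047 in the list, overlapped any peak that control STAT5 had. So complete an absence may have been fixed when the list was made, for example by removing control peaks of the same antibody. Whether that was done is not stated and was not tested. The lack of overlap, the shared edges and the distances below are therefore no evidence of where STAT5 bound. At 5 of the 27 (18.5%, 6.30 to 38.1) the interval began or ended at the base next to such a peak, against 18.9% over the list. These were 1 interval each at FZD3, FZD4, FZD6, FZD8 and GSK3A. The FZD4 interval ended at 86667419, and a control STAT5 peak with 3 and 0 began at 86667420. The FZD8 interval ended at 35932299, directly before a peak with 0 and 2. The median distance to the nearest listed control STAT5 peak was 294 bp, against 471 bp over the list. AXIN2 was the one gene of the 23 with no control STAT5 interval near its start at all, and its interval ended 8 bp short of a control BCL6 peak with 2 and 0. For the other 22 genes, control cells had a STAT5 interval elsewhere near the same start, so presence in the activator list does not show that STAT5 arrived at the gene. Equally, absence from that list does not show that STAT5 left a gene with control intervals only.

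For inhibited cells the deposited BCL6 list held an interval at 1 of the 54 genes, FZD4 (1.85%, 0.0469 to 9.89), against 3.3% of protein-coding symbols. The interval on chromosome 11, 86668457 to 86668538 (-2105 to -2024 bp), had values of 2 in library 6, 4 in library 12 and 4 in library 14. It was 82 bp wide, lay 48 bp from a control STAT5 peak with 2 and 0, and lay 520 bp from the nearest control BCL6 peak. The distance of 520 bp is no evidence about binding either, since 0 of the 1652 entries here shared a base with such peaks. For the same reason a BCL6 peak kept from control cells may not be listed. The count of 1 gene therefore does not show that BCL6 left the genes of the control BCL6 list. None of the 54 genes was in the list of inhibitor BCL6 intervals on control STAT5 peaks, where 0.863% of protein-coding symbols were. None of the further WNT genes was in either list. The inhibitor BCL6 list holds 1652 intervals in all, and 1 gene of 54 is near its background. A count of 0 of 54 allows a share of up to 6.60%.

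FZD4 was thus the one gene of the 54 in both treated lists (1.85%), against 1.27% of protein-coding symbols. It was 4.35% of the 23 genes in the activator STAT5 list, where the same share of protein-coding symbols was 4.86%. The FZD4 intervals did not overlap: 1037 bp lay between the activator STAT5 interval, which is nearer to the gene start, and the inhibitor BCL6 interval. Around them the control lists held 3 BCL6 and 3 STAT5 intervals, each with a value in 1 library.

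In control cells most of the pathway had an interval of either antibody. The control BCL6 list held 49 of the 54 genes in 97 intervals (90.7%, 79.7 to 96.9), against 73.9% of protein-coding symbols, and the control STAT5 list held 44 in 90 intervals (81.5%, 68.6 to 90.7), against 74.9%. Both lists held 42 of the 54 genes (77.8%, 64.4 to 88.0), against 63.6% of protein-coding symbols. These 42 were 85.7% of the genes in the BCL6 list, where the same share of protein-coding symbols was 86.1%, and 95.5% of those in the STAT5 list, where it was 84.9%. BCL6 without STAT5 was listed at 7 genes (AXIN2, BCL9L, DVL3, FZD2, GSK3B, RSPO1 and WNT10A; 12.96%, 5.37 to 24.9, against 10.3% of protein-coding symbols). STAT5 without BCL6 was listed at LRP6 and WNT3A (3.70%, 0.452 to 12.7, against 11.3%). The further WNT genes had 43 of 56 (76.8%) in each control list. Of the control BCL6 intervals at the pathway 29.9% overlapped a control STAT5 interval, against 30.1% of all control BCL6 intervals.

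By role, the control BCL6 and control STAT5 lists each held 6 of the 8 ligands, 9 of the 10 receptors, all 6 secreted antagonists, all 6 TCF factors and corepressors and all 3 other targets. They held 6 and 5 of the 7 R-spondin axis genes, 2 and 1 of the 3 dishevelled genes, 6 and 4 of the 6 destruction complex genes, and 5 and 4 of the 5 genes of β-catenin and its co-activators. The genes with control intervals only included the ligands WNT3, WNT3A, WNT5A, WNT10A and WNT11, the receptors FZD1, FZD2, FZD7, LRP5 and LRP6, and the antagonists SFRP1, SFRP2 and WIF1, which bind WNT proteins directly. They also included DVL2 and DVL3, which carry the signal from Frizzled to the destruction complex. CTNNB1 had 4 control BCL6 and 2 control STAT5 intervals, each with a value of 2 in 1 library and 0 in the other. None of the 97 control BCL6 intervals of the pathway crossed a gene start, against 7.20% of the 77098 pairs of interval and gene in that list. In control STAT5, 2 of the 90 did (2.22%, 0.270 to 7.80), against 7.34% of 77245 pairs. An interval listed for several genes counts once for each in these pairs.

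These control lists admit an interval with a value in 1 library. A value in both libraries was found for only 8 of the 97 control BCL6 intervals (8.25%) and for 5 of the 90 of STAT5 (5.56%), against 9.19% and 9.34% over the lists. By that rule, the one the treated lists also follow, 8 genes had a control BCL6 interval (14.8%, 6.62 to 27.1, against 12.3% of protein-coding symbols). They were BCL9, BCL9L, CSNK1A1, FZD3, FZD8, LEF1, LRP5 and SFRP1. Likewise 5 genes had a control STAT5 interval (9.26%, 3.08 to 20.3, against 13.8%): AXIN1, FZD6, LRP6, SFRP1 and TCF7L1. SFRP1, a secreted antagonist, was the one gene on both short lists, with 2 and 2 for either antibody. Of the 8 genes, BCL9, FZD3, FZD8 and LEF1 were also in the activator STAT5 list, and of the 5, FZD6 and TCF7L1. The same overlap over all protein-coding symbols is not given here, so the genes are only named. Library depth is unknown and entry differs between lists, so the 23 genes of the activator list and these 8 and 5 are set side by side without a comparison.

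The control STAT5 count leaned on 1 library. Without library 7, 24 genes had a control STAT5 interval (44.4%, 30.9 to 58.6), against 52.6% of protein-coding symbols, and without library 1, 38 (70.4%, 56.4 to 82), against 59.1%. Library 7 thus held more of the pathway than library 1 did. For control BCL6, 38 genes (70.4%, 56.4 to 82) were held by library 8 alone, against 57.5% of protein-coding symbols, and 38 by library 2 alone, against 50.7%.

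In the control lists FZD8 had the highest sum for BCL6, 3 and 7 in a peak of 939 bp on chromosome 10 (35933134 to 35934072), from -3710 to -2772 bp. AXIN1 followed with 7 and 0 at chromosome 16, 405398 to 406010, and BCL9 with the 5 and 2 given above. FZD8 was the one gene with at least 3 in both control BCL6 libraries. In control STAT5, FZD6 had the highest sum, 5 and 4 in a peak of 584 bp within the gene, and TCF7L1 had 3 and 3 at chromosome 2, 85361313 to 85361951, also within the gene. These 2 were the genes with at least 3 in both control STAT5 libraries, and both also had an activator STAT5 interval, upstream of the start.

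Within 1000 bp of the start, peaks with a value in both libraries were found for BCL6 at CSNK1A1, FZD3 and LRP5. CSNK1A1, the casein kinase that primes β-catenin, had 3 and 2 at chromosome 5, 148931398 to 148931847. LRP5 had 2 and 2 at chromosome 11, 68080566 to 68081061, and FZD3 had 3 and 2 in a peak of 572 bp. For STAT5 they were found at TCF7L1 and FZD6, named above. Elsewhere no control sum reached those of FZD8, AXIN1 and BCL9. The highest sum was 5 for BCL6 in the R-spondin axis (5 and 0 at LGR4 and at RSPO1, and 4 and 0 for STAT5 at LGR5 and RNF43). It was 4 among the ligands (0 and 4 for BCL6 at WNT1) and 3 for STAT5 there (0 and 3 at WNT5A). The dishevelled genes reached 2 and 0 for BCL6 at DVL2, 0 and 2 at DVL3, and 3 and 0 for STAT5 at DVL2. Among the secreted antagonists DKK3 had 0 and 4 for STAT5, and PYGO1 and BCL9 each had 0 and 4 for STAT5 among the co-activators. Of the 3 other targets, NKD1 had 0 and 3 for BCL6 in 2 peaks, and for STAT5 ASCL2, NKD1 and SP5 had no sum above 2.

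**Figure D4:**
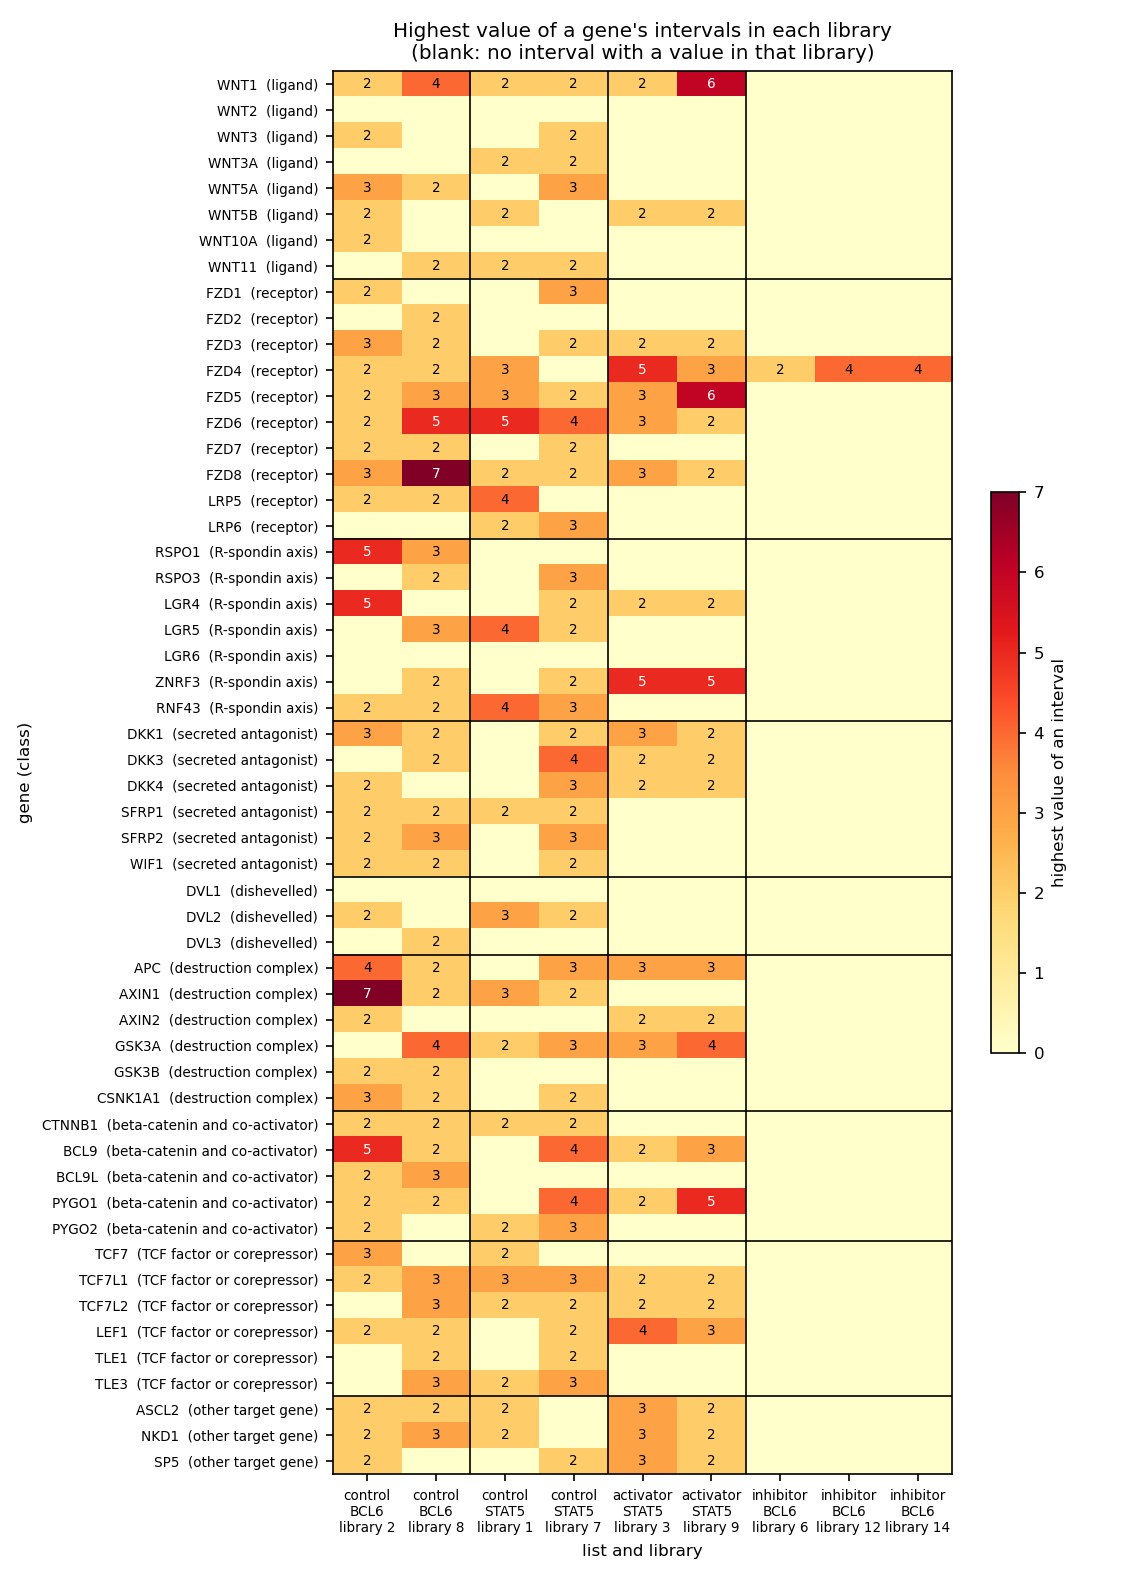
Highest value among a gene's intervals (colour and printed number) for the 54 WNT pathway genes (rows, by class) in the 9 libraries (columns, by list). Blank cells have no interval with a value in that library. The 23 genes of the activator STAT5 columns have a value in both libraries, and FZD4 alone fills the inhibitor BCL6 columns, with 2, 4 and 4.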

How the data were processed

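The tools named in the submitters' processing notes are CASAVA 1.8.2 and Bowtie 0.12.7, with GRCh37 as the build. What each tool did, how peaks were called and the depth per library are not stated there, in the labels or in the headers. The authors deposited 6 interval lists with 1 whole number per interval and library. It was read here as a count of reads, although no header names it, since a control interval held by 1 library of BCL6 was at most 334 bp wide at a value of 2. The lists also hold, as other deposited measures, each width in bp and a signed distance of -3000 to 1000 bp from an Ensembl gene start to the interval's start coordinate, from which edges in the direction of the gene were computed. Sums of values per library ran from 4390 to 100945 over the listed intervals and are no depths.

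Library columns were matched to samples by condition and library number. Genes were found by symbol, and the members and gene lists were chosen with earlier results of these data known. The background was the 20056 protein-coding symbols of a RefSeq table (GRCh38.p14, used for names and promoter sequences only), which matched 26166 of the 26333 listed symbols. Intervals sharing 1 bp or more were taken to overlap, and that step was tested on simulated intervals. No test between groups was made, because entry differs between lists: control lists take a value in 1 library, treated lists need one in each. Named were all genes with a treated interval, all genes in no list, and from the control lists the highest sum per class and every peak with a value in both libraries. pandas 2.3.3 and SciPy 1.17.1 were used. Alternatives were stricter values, widths and distances, intervals of 1 symbol, a wider or stricter contact between intervals, other backgrounds and leaving out each library.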

Additional observations from a re-analysis of the deposited data

How the results depend on the processing

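Counts of the 54 genes moved with the rule of entry. At a value of 3 or more in all libraries of a list, the count was 1 in control BCL6, 2 in control STAT5, 6 in activator STAT5, 0 in inhibitor BCL6, 1 for activator STAT5 on control BCL6 (APC) and 0 in both treated lists. In these lists, both treated lists aside, the shares of protein-coding symbols were 1.43%, 1.56%, 5.25%, 0.15% and 1.65%. Those of the 54 genes were 1.85%, 3.7%, 11.1%, 0% and 1.85%. Within 1000 bp of the gene start the count was 32, 28, 11, 0, 1 (DKK1) and 0 in the same order of lists. The shares of protein-coding symbols there were 51.5%, 54.3%, 14.5%, 1.57% and 3.77%, both treated lists aside. Those of the 54 genes were 59.3%, 51.9%, 20.4%, 0% and 1.85%. There the share of the 54 genes was below that of protein-coding symbols in control STAT5 (51.9% against 54.3%) and for activator STAT5 on control BCL6 (1.85% against 3.77%), the other way round from all distances. Where both control libraries had to hold a value it was 8 for BCL6 and 5 for STAT5. At a width of at least 100 bp FZD4 left the inhibitor BCL6 list, leaving 0, against 1.6% of protein-coding symbols. Leaving out 1 library gave 38 to 38 in control BCL6 and 24 to 38 in control STAT5. For the treated lists leaving out 1 library changes nothing by construction, so the rest had also to hold at least 3. Then 9 genes were left in activator STAT5 without library 3 (16.7%, 7.92 to 29.3, against 13.8% of protein-coding symbols) and 12 without library 9 (22.2%, 12 to 35.6, against 10.1%), with 9 to 23 over these settings. For activator STAT5 on control BCL6 it was 3 without library 3 (5.56% against 3.98%) and 4 without library 9 (7.41% against 2.96%), with 3 to 7 over these settings, and in inhibitor BCL6 0 to 1. All these settings keep fewer intervals by construction. Over all symbols of the reference table, coding or not, the background was 37.4% in control BCL6, 37.8% in control STAT5, 12.8% in activator STAT5, 1.60% in inhibitor BCL6, 3.63% for activator STAT5 on control BCL6 and 0.417% for inhibitor BCL6 on control STAT5. Among protein-coding symbols with a control interval, a choice made after seeing the data, it was 86.7%, 88.0%, 30.0%, 3.79%, 8.73% and 1.01%, and the activator STAT5 share of the pathway there was 45.1% (23 of 51 genes, 31.1 to 59.7). The other 36 values under these alternatives stayed within 1.5 times the value reported, but many of them could not move. Among them are the treated lists with 1 library left out. Also fixed were stricter rules on the 0 genes of inhibitor BCL6 on control STAT5. A width of at least 100 bp could not change the control lists, whose narrowest interval was 250 bp. The 36 are therefore no measure of stability. With values of 2 or 3 reads and unknown depth, a missing interval does not show that a protein was absent.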
